A study of Arabidopsis thaliana with 12 samples.

Results

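The 9 untreated rosette libraries of a 12-library series on Arabidopsis thaliana were read as an ordered scale of LSD1 transcript, with lsd1-1 at the low end, wild type in the middle and 35S:LSD1-GFP at the high end. They were chosen by their labels, 3 libraries per genotype, and the 3 libraries of the dexamethasone-treated 35S:LSD1-GR line were left out. All plants were of the Wassilewskija accession (Ws-0), 2 weeks old, grown on MS medium with 16 h of light at 22 °C by day and 18 °C by night, and whole rosettes were taken. Wild type carried no transgene, lsd1-1 is the mutant line of that name, and LSD1-GFP carries LSD1 fused to green fluorescent protein behind the viral 35S promoter, which drives expression in most cell types. The sources used here do not give the genetic background of the LSD1-GFP line, the number of independent lines or the hour of harvest, and no line with GFP alone was among the libraries. The labels call the replicates biological repeats.

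LSD1, a protein with zinc fingers, holds back cell death. Leaves of lsd1 mutants start to die in spots under long days or excess light, and the death then spreads because superoxide, salicylic acid and the immune regulators EDS1 and PAD4 feed it. In cell death control LSD1 binds the metacaspase MC1, the transcription factor bZIP10 and catalases. The question put to each gene was whether its transcript followed the LSD1 level steadily through wild type, or moved the same way when LSD1 was lost and when it was raised.

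The LSD1 transcript itself (AT4G20380, plus strand of chromosome 4, 11004503 to 11006968 in TAIR10.1) set the scale. Levels are CPM, counts scaled to a common library total with TMM factors. Replicates 1 to 3 of lsd1-1 had 0.0974, 0.185 and 0 CPM of LSD1. Wild type held 22.8, 22.1 and 25.7 CPM. LSD1-GFP held 2161, 2664 and 2147 CPM. The groups were far apart and no libraries overlapped. The lsd1-1 libraries held 3 LSD1 counts in all against 756 in wild type, a level of 0.396% of wild type (95% exact binomial counting interval 0.0815% to 1.16%, counting error only). LSD1-GFP held 71597, a 99.2-fold rise, and transgene and resident transcripts are not told apart in the counts. On the log2 scale the group means were -3.41, 4.56 and 11.18, so the steps were nearly even: with the extremes at -1 and 1, wild type lay at 0.0916 instead of 0.

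**Figure D1:**
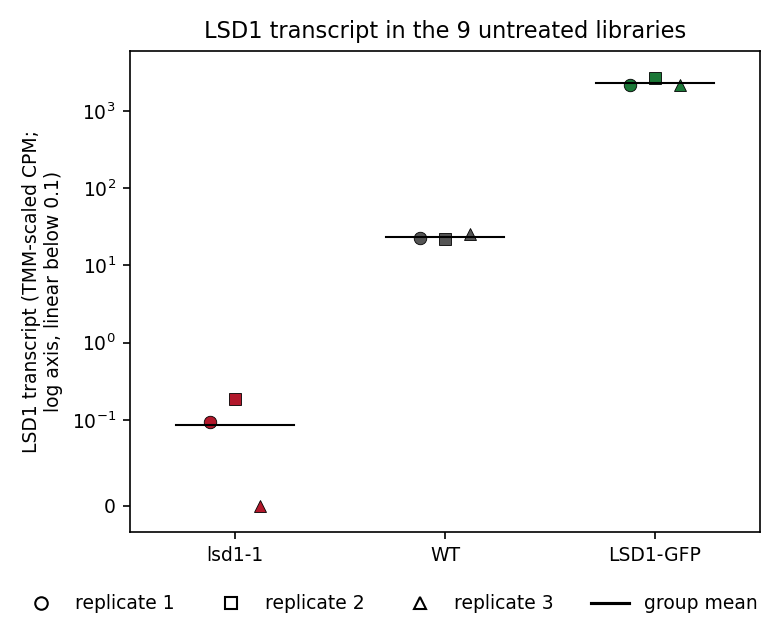
LSD1 transcript in each of the 9 untreated libraries, in TMM-scaled CPM on an axis that is logarithmic above 0.1 and linear below it. Symbols are replicates and bars are group means; lsd1-1 averages 0.0943 and LSD1-GFP 2324 CPM, wild type lies between 22.1 and 25.7, and no genotypes overlap.

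Totals ran from 9781360 to 11503432 counts per library, with 21916 to 22279 genes detected, and 19252 genes passed the filter on low counts. Summed over the 44 nuclear photosynthesis genes, levels were 81000 to 92100 CPM in lsd1-1, 78860 to 96890 in wild type and 118600 to 135000 in LSD1-GFP. Summed root markers (9 genes) were at 106 to 117, 87.6 to 103 and 110 to 125 CPM in that order. SCR made up most of this sum, with 7278 counts over the 9 libraries against 923 for CASP1, the next largest. Flower markers (5 genes) were at 5.38 to 7.99, 4.92 to 7.70 and 2.42 to 2.98 CPM, and epidermis markers (5 genes) at 593 to 658, 693 to 782 and 754 to 868 CPM. No marker was at 0 in all 9 libraries. In bulk rosettes fewer cells of a type and less RNA per cell cannot be told apart, and the part of tissue makeup in the results was not tested.

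Many genes changed along the scale, but few did so in both steps. The linear term is the log2 difference of LSD1-GFP from lsd1-1 divided by the 2 steps. It was called at an adjusted p below 0.05 in 5082 of 19252 genes (26.4%), 2396 higher (12.4%) and 2686 lower (14.0%) with more LSD1. The quadratic term is the mean of both extremes minus wild type, and it was called in 3800 genes (19.7%), 2102 above 0 (10.9%) and 1698 below 0 (8.82%). The linear term alone was called in 3069 genes (15.9%), the quadratic alone in 1787 (9.28%), both in 10.5% and neither in 12383 (64.3%). A linear call often came from a single step: of the 5082 genes, 3025 were called against wild type in LSD1-GFP alone, 603 in lsd1-1 alone and 1134 in neither. Wild type lay outside the extremes in 2283 of them. Against wild type, lsd1-1 differed in 1776 genes (9.23%; 6.18% higher and 3.04% lower) and LSD1-GFP in 5638 (29.3%; 15.2% higher and 14.0% lower), and both steps are measured from the same 3 wild-type libraries.

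Genes were therefore sorted by both steps. A gene rose or fell steadily where the linear term and both steps were called in the same direction along the scale, and it stood on the same side at both extremes where the quadratic term and both differences from wild type were called with the same sign. By this rule 35 genes rose steadily (0.182%) and 60 fell (0.312%), 0.493% in all, while 501 were higher at both extremes (2.60%) and 351 lower (1.82%), 4.43% in all. Another 829 were called in lsd1-1 alone (4.31%) and 4691 in LSD1-GFP alone (24.4%), which left 66.4% in no class. Libraries of neighbouring genotypes did not overlap in 35 of 35 rising and 56 of 60 falling genes (1.32% and 1.42% of all genes tested were so ordered), nor both extremes with wild type in 494 of 501 higher and 351 of 351 lower genes (6.32% and 6.50%). The classes were chosen by calls in both steps, which favours such separation, so these counts are no separate support. With replicate number as a block the counts were 120 and 176 steady and 1075 and 809 on the same side, and the quadratic term was called above 0 in 3252 genes and below 0 in 2734. Single libraries moved these counts by over 1.5 times. Steady rise counted 16, 21 and 10 genes without lsd1-1 replicates 1, 2 and 3, 9, 15 and 22 without the same of wild type, and 18 without LSD1-GFP replicate 1. Steady fall counted 34 genes without lsd1-1 replicate 1, 21 and 39 without wild type replicates 1 and 3, and 37 without LSD1-GFP replicate 3. Higher at both extremes counted 323 genes without lsd1-1 replicate 2 and 223 and 328 without wild type replicates 1 and 3; lower counted 224 and 209 without lsd1-1 replicates 2 and 3 and 149 without wild type replicate 1. The quadratic term was called above 0 in 1103 genes and below 0 in 824 without wild type replicate 1, and below 0 in 1090 without replicate 2. Gene by gene, 7 of 35 rising, 14 of 60 falling, 177 of 501 higher and 129 of 351 lower genes stayed in their class with each of the 9 libraries left out in turn. A class needs both steps called, and a gene can leave it while its linear or quadratic term is still called.

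**Figure D2:**
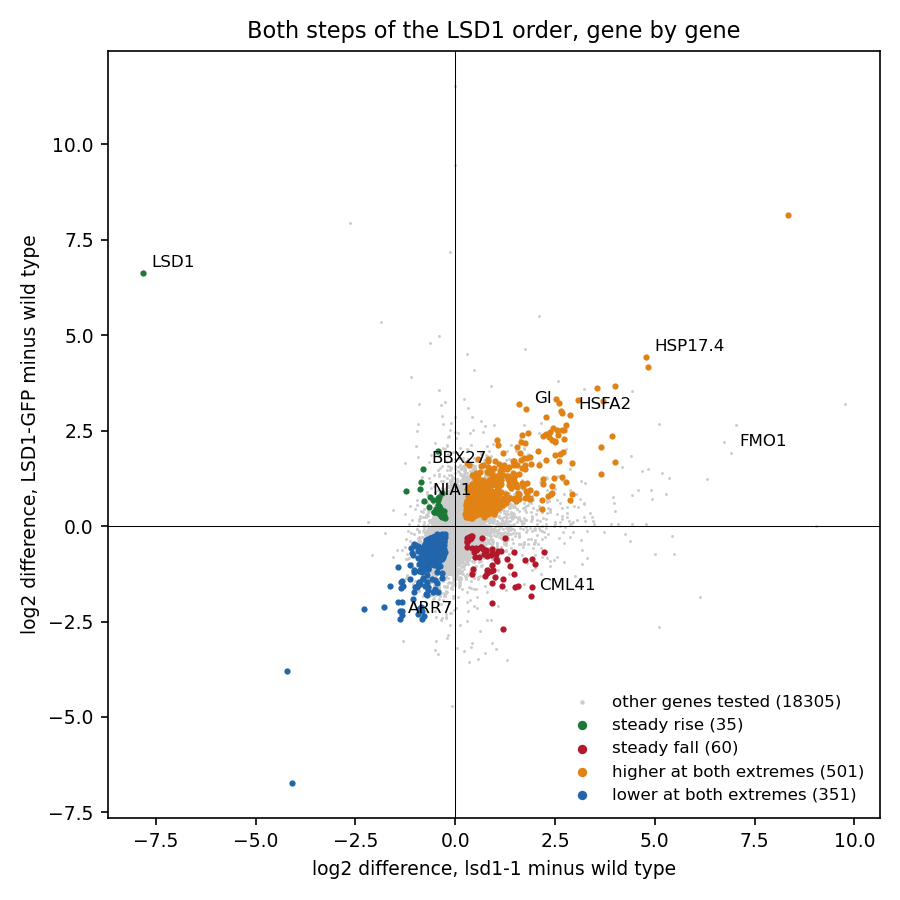
Each point is 1 of 19252 genes, placed by its log2 difference from wild type in lsd1-1 (horizontal) and in LSD1-GFP (vertical); colours mark the 4 shape classes with their gene numbers. The 501 genes higher and 351 lower at both extremes fill the upper right and lower left corners, and the 35 and 60 steady genes lie in the other corners; both axes share the wild-type libraries.

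Steady genes followed LSD1 with small slopes. Beside LSD1, none of the 34 other rising genes reached 1 log2 unit in its smaller step, and the median slope over all 35 was 0.45 per step, against -0.01 over all genes tested. The quadratic term was not called in 33 of the 35.

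AT2G34510, a protein of unknown function, and BBX27, a B-box zinc finger protein, were in the class in all 9 leave-outs and with the block. AT2G34510 had 22.8, 23.7 and 26.3 CPM in lsd1-1, 44.5, 37.3 and 51.8 in wild type, then 88.7, 84.5 and 90.3 in LSD1-GFP. Its slope was 0.93 (SE 0.06, adjusted p = 5.32e-07), with nearly equal steps of -0.87 and 0.98 from wild type. BBX27 had 10.8, 9.18 and 7.62, then 18.3, 14.4 and 15.1, then 47.9, 46.6 and 39.9 CPM. Its slope was 1.14 (SE 0.07, adjusted p = 5.32e-07), and the upper step of 1.49 was wider than the lower one of -0.80. AT4G22517, annotated as a lipid-transfer type protein, had 3.80, 2.22 and 3.76, then 6.62, 7.61 and 8.70, then 9.63, 15.9 and 17.9 CPM, and left the class without lsd1-1 replicate 2. The invertase or pectin methylesterase inhibitor AT3G62820 rose by 0.70 per step (SE 0.08) and the late embryogenesis abundant protein UNE15 by 1.01 (SE 0.12), but both were in the class in only 3 of 9 leave-outs, AT3G62820 when a library of LSD1-GFP was left out and UNE15 without lsd1-1 replicate 2, wild type replicate 3, or replicate 3 of LSD1-GFP. ELF3, a clock protein of the evening complex, rose from 25.9, 25.1 and 23.9 CPM through 34.8, 30.5 and 32.3 to 43.2, 50.2 and 42.1 (slope 0.43, SE 0.05, adjusted p = 4.49e-05); it left the class without lsd1-1 replicate 2 or 3 or wild type replicate 1. Among abundant transcripts, chosen here after their values were seen, the carbonic anhydrase CA2 went from a mean of 1840 through 2474 to 3616 CPM, and left the class when any lsd1-1 library, wild type replicate 1 or 3, or replicate 1 of LSD1-GFP was left out. GDSL-like lipases made up 3 of the 35 rising genes (8.57%, against 0.271% of all genes tested). This annotation word was not planned beforehand, so the share only describes the class. ABCG11, which exports cuticle lipids, is another gene of the class (slope 0.35, SE 0.05) but kept it only without lsd1-1 replicate 2 or LSD1-GFP replicate 3. Summed epidermis markers (above) were lowest in lsd1-1, but wild type (693 to 782 CPM) and LSD1-GFP (754 to 868 CPM) overlapped. The part of these markers in this result was not tested.

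The steady rise of NIA1 depended on the fit. It encodes nitrate reductase 1, which turns nitrate into nitrite, and had 272, 357 and 326 CPM in lsd1-1, 550, 413 and 690 in wild type, then 906, 695 and 1014 in LSD1-GFP. No library of a lower group reached a higher one, and the slope was 0.73 per step (SE 0.10, adjusted p = 0.000311). With the block its lower step was no longer called (-0.76, SE 0.20, adjusted p = 0.0659), so it was in LSD1-GFP alone, and without the block it left the class in 7 of 9 leave-outs, all but lsd1-1 replicate 2 and LSD1-GFP replicate 2. Of the other 3 nitrate genes tested, the nitrite reductase NIR1 was called in LSD1-GFP alone (log2 0.90, SE 0.13, adjusted p = 0.000247) and NIA2, the second nitrate reductase gene, in lsd1-1 alone (log2 -0.63, SE 0.10, adjusted p = 0.00149). The nitrate transporter NRT1.1 was called in neither, but was lower at both extremes with the block. The steady rise of UPM1, which makes the siroheme that nitrite reductase needs, ran from 85.5, 103 and 87.5 CPM through 123, 106 and 140 to 218, 194 and 208 (slope 0.58, SE 0.05), and UPM1 left the class without lsd1-1 replicate 1 or 3 or wild type replicate 1 or 3.

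Genes that fell as LSD1 rose had steeper slopes, with 9 of 60 changing by at least 1 log2 unit in their smaller step and a median slope of -0.83, and those named by their step size include several known from defence. CML41, a calmodulin-like calcium sensor that responds to bacterial flagellin, had 18.5, 23.1 and 17.1 CPM in lsd1-1, 7.01, 5.19 and 3.59 in wild type, then 1.99, 0.746 and 1.72 in LSD1-GFP. The 9 libraries fell into 3 separate ranges, and the slope was -1.86 (SE 0.15, adjusted p = 5.08e-06) with a quadratic term of 0.03 (SE 0.28). CCOAMT, a caffeoyl-CoA methyltransferase of phenylpropanoid metabolism, had 13.8, 10.7 and 12.4, then 5.28, 3.67 and 3.40, then 1.79, 1.12 and 1.21 CPM (slope -1.58, SE 0.12). ANK, an ankyrin protein, had 129, 74.1 and 120, then 44.0, 29.3 and 43.1, then 21.6, 12.2 and 15.2 CPM (slope -1.36, SE 0.14). In each group of ANK replicate 2 was the lowest library. AT4G33720, a secreted protein of the family that includes PR1, had 188, 92.8 and 180, then 79.7, 49.4 and 71.5, then 12.3, 6.71 and 12.2 CPM. Its libraries did not overlap, and the upper step (-2.69, SE 0.36) was the larger one; it was in the class only without lsd1-1 replicate 2 or LSD1-GFP replicate 2. The receptor kinase AT5G59670 fell by 1.55 per step (SE 0.14) and the myrosinase-binding protein MBP1 by 1.29 (SE 0.15). CML41, CCOAMT and AT5G59670 were in the class in all 9 leave-outs, ANK in all but that of wild type replicate 3 and MBP1 in all but those of lsd1-1 replicate 2 and wild type replicate 1.

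**Figure D3:**
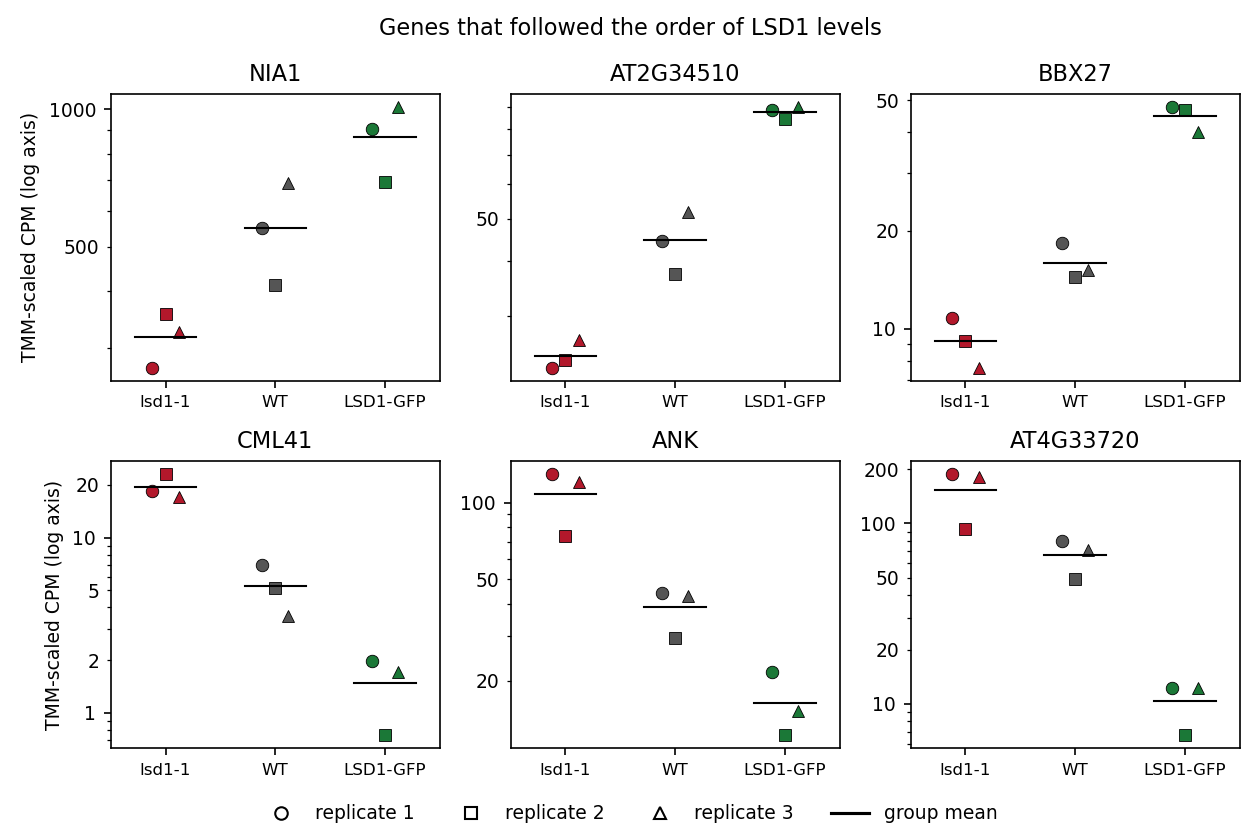
TMM-scaled CPM on a log axis for 3 genes that rose and 3 that fell steadily from lsd1-1 through wild type to LSD1-GFP; symbols are replicates and bars group means. Each gene's libraries fall into separate ranges by genotype, which the rule that named these genes required.

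Kinases made up 11 of the 60 falling genes (18.3%, against 5.80% of all genes tested), a word search that was not planned beforehand either. CRK5, a cysteine-rich receptor kinase, had means of 4.33, 2.18 and 0.859 CPM (slope -1.17, SE 0.16, adjusted p = 0.000252), and was in the class only without lsd1-1 replicate 2 or LSD1-GFP replicate 3. MPK3, a MAP kinase of immune signalling, had a small slope of -0.34 (SE 0.04), and the MAP kinase kinase MKK9 one of -0.58 (SE 0.07); both were picked from the class after their values were seen. WRKY53, a transcription factor of senescence and defence, had 12.7, 16.9 and 12.5 CPM in lsd1-1, 7.20, 5.73 and 4.16 in wild type, then 3.97, 2.98 and 2.42 in LSD1-GFP (slope -1.08, SE 0.12, adjusted p = 3.90e-05). The senescence marker SAG13 had 67.9, 64.6 and 52.3, then 41.4, 27.6 and 28.8, then 22.3, 12.7 and 12.9 CPM (slope -0.97, SE 0.11). ASN1, an asparagine synthase switched on by darkness and low sugar, fell by 0.65 per step (SE 0.06), and PR4, a chitin-binding defence protein, also by 0.65 (SE 0.08). PR4 is among the 4 falling genes whose wild-type and LSD1-GFP libraries overlapped. GSTF2, a glutathione transferase and the most abundant transcript of the class, had 1754, 1663 and 1689, then 844, 954 and 713, then 496, 429 and 455 CPM (slope -0.94, SE 0.06). DMR6, which hydroxylates salicylic acid, was called in both steps but unequally: its lower step was 1.25 (SE 0.10) and its upper step -0.32 (SE 0.10), and its quadratic term was called as well (0.46, SE 0.09, adjusted p = 0.00314). GSTF2 was in the class in all 9 leave-outs. DMR6 left it without wild type replicate 1, or replicate 2 or 3 of LSD1-GFP, and WRKY53 without the same libraries or wild type replicate 2. MPK3 left it without those 4 libraries too, MKK9 without lsd1-1 or wild type replicate 2 or 3, and SAG13 without lsd1-1 replicate 1 or 2 or wild type replicate 2 or 3. ASN1 left it without lsd1-1 replicate 1 or 3 or wild type replicate 1, and PR4 without lsd1-1 replicate 1, wild type replicate 1 or 2, or replicate 3 of LSD1-GFP.

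Genes higher at both extremes were led by heat shock genes. The cell makes small heat shock proteins and the HSP70, HSP90 and HSP101 chaperones when proteins unfold, and heat shock factors such as HSFA2 switch their genes on through heat shock elements in the promoter. Of 24 heat shock and folding genes tested, 21 had a called quadratic term above 0 (10.9% of all genes tested) and 16 were called higher at both extremes (2.60% of all genes tested). The list's median quadratic term was 2.31 log2 units and its median linear term 0.04, against -0.00 and -0.01 over all genes tested. Words for heat shock, HSP20 or DnaJ proteins were in the annotation of 35 of the 501 genes (6.99%, against 0.933% of all genes tested). These words were not planned beforehand, and the share only describes the class.

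The promoters of 4 genes are shown for the 120 bases before the annotated start, to set the searched letters beside the values (TAIR10.1, read 5′ to 3′ on the gene's strand). The heat shock element was searched for only as GAANNTTC, so other forms of it are not marked. Capitals mark GAANNTTC in the first 3, of which HSP17.6A held none here, and the W-box TTGACC or TTGACT, on either strand, in WRKY53. They lie at chr3:16984868-16984987 on the minus strand for HSP17.4, chr2:11135504-11135623 on the plus strand for HSFA2, chr5:3884839-3884958 on the minus strand for HSP17.6A and chr4:12393983-12394102 on the minus strand for WRKY53.
HSP17.4: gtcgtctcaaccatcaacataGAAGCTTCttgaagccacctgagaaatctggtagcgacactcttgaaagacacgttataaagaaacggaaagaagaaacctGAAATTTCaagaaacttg
HSFA2: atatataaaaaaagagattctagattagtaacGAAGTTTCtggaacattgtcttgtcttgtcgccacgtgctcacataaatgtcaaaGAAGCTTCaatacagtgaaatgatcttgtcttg
HSP17.6A: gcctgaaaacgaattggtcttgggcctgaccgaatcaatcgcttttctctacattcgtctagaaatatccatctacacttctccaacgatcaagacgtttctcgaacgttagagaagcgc
WRKY53: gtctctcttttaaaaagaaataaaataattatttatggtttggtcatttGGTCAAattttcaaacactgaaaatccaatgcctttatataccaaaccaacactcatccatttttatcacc

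HSP17.4, a cytosolic small heat shock protein, had 3.70, 16.2 and 3.85 CPM in lsd1-1, 0.192, 0.447 and 0.189 in wild type, then 4.37, 9.51 and 4.85 in LSD1-GFP. Both extremes lay well above wild type and replicate 2 was the highest library of every group. The quadratic term was 4.60 (SE 0.89, adjusted p = 0.00752), from differences of 4.77 (SE 0.94) and 4.43 (SE 0.97), and the linear term was -0.17 (SE 0.28). HSP17.6A had 9.16, 44.3 and 10.8, then 0.0960, 1.79 and 0.284, then 9.43, 21.7 and 9.09 CPM (quadratic term 4.49, SE 1.05, adjusted p = 0.0251). HSP23.6-MITO, a mitochondrial member, had 4.09, 10.5 and 4.03, then 0.384, 0.537 and 0.189, then 4.17, 8.30 and 2.12 CPM (3.85, SE 0.70, adjusted p = 0.00438). AT1G07400, another HSP20-like chaperone, had means of 129, 10.9 and 137 CPM, and the chloroplast protein HSP21 means of 1.78, 0.125 and 1.29 CPM.

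The factor HSFA2 had 165, 346 and 143 CPM in lsd1-1, 16.8, 58.4 and 13.3 in wild type, then 213, 271 and 182 in LSD1-GFP. Its differences from wild type were nearly equal, 2.88 (SE 0.62) and 2.90 (SE 0.62), and the quadratic term was 2.89 (SE 0.58, adjusted p = 0.0145). HSP90.1 had 260, 719 and 243, then 25.0, 94.9 and 25.5, then 375, 713 and 357 CPM (3.19, SE 0.69, adjusted p = 0.0182). HSP70 had 391, 1119 and 419, then 55.3, 180 and 65.9, then 647, 1031 and 696 CPM (2.83, SE 0.58, adjusted p = 0.0155). Smaller rises at both extremes were seen for the plastid chaperone CLPB3 (1.09, SE 0.14, adjusted p = 0.000444) and the factor HSFB2A (1.14, SE 0.16, adjusted p = 0.000652). HSP18.2 had means of 1.39, 1.18 and 0.775 CPM and no call in either step.

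The heat shock list moved with replicate number. Summed over its 26 genes, levels were 2599, 5707 and 2487 CPM in lsd1-1, 645, 1369 and 648 in wild type, then 3562, 5311 and 3416 in LSD1-GFP. Replicate 2 was the highest library in all 3 groups for 21 of the 24 genes tested (87.5%, against 7.15% of all genes tested), and for 197 of the 501 genes higher at both extremes (39.3%). Within each replicate number the sum was higher in lsd1-1 and in LSD1-GFP than in wild type. With the block, 22 of the heat shock genes were called higher at both extremes. With replicates 1 and 3 of each group alone, a choice made after seeing the data, 20 of 23 were, at a median quadratic term of 2.23. Leaving out wild type replicate 2 gave 18 at both extremes, and leaving out any other single library gave fewer than the 16 of the full fit. There were 5 without wild type replicate 1 and 4 without replicate 3 (where 7 and 6 quadratic terms were called). There were 12 without each of the lsd1-1 libraries, and 7, 9 and 8 without LSD1-GFP replicates 1, 2 and 3. The quadratic term of HSP17.6A had an adjusted p of 0.0924 without wild type replicate 1 and 0.108 without replicate 3, and that of HSP17.4 one of 0.0622 without replicate 3. The calls of AT1G07400 (0.0691 and 0.0778), HSP90.1 (0.0716 and 0.0805), HSFA2 (0.0615 and 0.0559) and HSP70 (0.0611 and 0.0741) were lost without wild type replicate 1 or 3, while without replicate 2 the terms rose to 4.71, 4.13, 3.87 and 3.56 and that of HSP17.6A to 6.39. HSP21, CLPB3 and HSFB2A were higher at both extremes in all 9 leave-outs and HSP23.6-MITO in all but that of wild type replicate 3, against 3 leave-outs for HSFA2 (lsd1-1 replicates 2 and 3, wild type replicate 2), 2 for HSP70 (lsd1-1 replicate 1, wild type replicate 2) and 1 for HSP90.1 (wild type replicate 2). The fit to all 12 libraries did not call the quadratic terms of HSP17.4 (adjusted p = 0.1), HSP17.6A (0.0762), HSP23.6-MITO (0.118) and HSP21 (0.214). HSP21 had only 4 counts in wild type.

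Chaperones of the endoplasmic reticulum, which fold secreted and membrane proteins, were also higher at both extremes, by less. Of 11 genes tested, 10 had a quadratic term called above 0 (10.9% of all genes tested), with a median quadratic term of 0.52. At both extremes 8 were called higher (2.60% of all genes tested). BIP2, an HSP70 of this compartment, had 241, 265 and 264 CPM in lsd1-1, 133, 166 and 186 in wild type, then 249, 276 and 292 in LSD1-GFP (0.71, SE 0.10, adjusted p = 0.000645). The groups did not overlap, and replicate 2 was the highest in all groups for only 1 of the 11 genes. SHD, the HSP90 of this compartment, had a quadratic term of 0.59 (SE 0.08) and its partner ERDJ3B one of 0.52 (SE 0.08). BZIP60, the factor that switches on folding genes when unfolded proteins build up, had 84.5, 85.8 and 71.8, then 50.1, 53.2 and 38.8, then 67.0, 77.3 and 57.4 CPM (0.64, SE 0.12, adjusted p = 0.00301). Without wild type replicate 1, 4 of the 11 were called at both extremes. BI1, a membrane protein of this compartment that restrains cell death, had means of 86.3, 57.1 and 88.1 CPM (0.61, SE 0.08, adjusted p = 0.000542). It kept this call in all 9 leave-outs. Of the 17 cell death regulators and LSD1 partners tested, LSD1 and BI1 were in the 4 classes without the block; with it BAP2 was also higher at both extremes, and ACD6 and MC2 fell steadily.

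The clock gene GI, whose protein links the clock to flowering, was higher at both extremes. It had 14.4, 28.6 and 15.1 CPM in lsd1-1, 4.32, 7.25 and 5.30 in wild type, then 42.0, 54.6 and 44.9 in LSD1-GFP. Both extremes were clear of wild type, LSD1-GFP stood highest, and replicate 2 was the highest of each group. Its quadratic term was 2.42 (SE 0.27, adjusted p = 0.000387) and its linear term 0.64 (SE 0.12, adjusted p = 0.00384). The 24 clock genes tested fell into several classes. LNK1 and RVE7 were higher at both extremes with GI, and RVE4 and RVE2 were lower. RVE4, a morning activator, had 173, 169 and 183, then 281, 228 and 285, then 159, 146 and 160 CPM (-0.68, SE 0.08, adjusted p = 0.000201). ELF3 rose steadily, while the evening genes PRR5, TOC1 and LUX rose in LSD1-GFP alone by 1.94 (SE 0.20), 1.24 (SE 0.15) and 1.27 (SE 0.16). The morning genes CCA1 and LHY fell there by 0.34 (SE 0.11) and 0.58 (SE 0.10). With the block 5 clock genes were higher at both extremes. GI, LNK1 and RVE4 kept their calls in all 9 leave-outs, RVE7 only without wild type replicate 2, and RVE2 only without lsd1-1 replicate 2 or 3 or wild type replicate 3. The hour of harvest, on which all of these levels depend, is not given in the sources used here.

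Oxidative stress markers stood higher at both extremes in 8 of 20 genes tested (2.60% of all genes tested), and 13 of 20 had a quadratic term called above 0 (10.9% of all genes tested), with a median of 0.97. NDB2, an alternative dehydrogenase of mitochondria, had 67.6, 79.2 and 62.2 CPM in lsd1-1, 27.3, 35.7 and 35.3 in wild type, then 91.4, 118 and 91.6 in LSD1-GFP (1.35, SE 0.12, adjusted p = 6.15e-05). Its usual partner, the alternative oxidase AOX1A, was called in both as well (1.12, SE 0.18), whereas its relative AOX1D was called in lsd1-1 alone. AOX1D had 40.2, 38.5 and 37.1 CPM in lsd1-1 against 4.90, 3.85 and 2.46 in wild type, then 4.87, 5.41 and 3.94 in LSD1-GFP. BCS1, a marker of mitochondrial stress, stood higher in lsd1-1 (92.5, 102 and 75.0 CPM) than in LSD1-GFP (34.6, 32.3 and 25.7), with wild type below both (16.5, 22.0 and 15.2). ZAT10, a zinc finger repressor switched on by light and oxidative stress, had the same order, with means of 24.5, 8.10 and 13.3 CPM. Without wild type replicate 3, 5 of the 20 were called at both extremes. Among 28 antioxidant enzymes, 1 was called higher at both extremes (2.60% of all genes tested). It was VTC2, which commits the cell to making vitamin C (0.47, SE 0.08, adjusted p = 0.00232). With the block APX2 and VTC5 were too, while VTC2 lost the call when any lsd1-1 library was left out, and without wild type replicate 1 or 3.

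Jasmonate genes of the synthesis and MYC2 branch were higher at both extremes in 9 of 23 tested (2.60% of all genes tested) and lower in 1, JAZ6 (1.82%), with 13 quadratic terms called above 0 (10.9%) and a median of 0.76. JAZ6 kept its call only without lsd1-1 replicate 1, wild type replicate 3, or replicate 3 of LSD1-GFP. JAZ1, a repressor that jasmonate itself switches on, had 39.4, 41.0 and 34.4 CPM in lsd1-1, 11.7, 14.6 and 14.6 in wild type, then 40.9, 34.5 and 29.0 in LSD1-GFP. The extremes overlapped each other and both cleared wild type (1.42, SE 0.12, adjusted p = 3.78e-05). The synthesis genes leaned to different ends: AOS had 46.9, 52.1 and 47.9, then 37.4, 37.6 and 40.6, then 113, 119 and 118 CPM, while the lipoxygenase LOX4 had means of 45.6, 15.2 and 24.8 CPM. The linear term was 0.63 (SE 0.04, adjusted p = 5.32e-07) for AOS and -0.44 (SE 0.06, adjusted p = 0.000281) for LOX4. Without wild type replicate 1 or lsd1-1 replicate 2, 5 of the 23 were higher at both extremes. Without wild type replicate 1, 7 had a quadratic term called above 0.

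Indole glucosinolates are sulfur defence compounds made from tryptophan, and 6 of 17 genes of their synthesis and of camalexin were higher at both extremes (2.60% of all genes tested). CYP79B2, the entry enzyme, had 52.9, 53.8 and 67.1 CPM in lsd1-1, 17.2, 21.0 and 24.3 in wild type, then 36.3, 51.8 and 54.8 in LSD1-GFP (1.33, SE 0.15, adjusted p = 0.000284). CYP83B1 and SOT16, later steps of the core pathway, had quadratic terms of 0.96 (SE 0.12) and 0.96 (SE 0.14). The camalexin enzymes CYP71A12, CYP71A13 and PAD3 were called in lsd1-1 alone. Aliphatic glucosinolate genes differed in shape. Of 15 tested, 13 were called in LSD1-GFP alone (24.4% of all genes tested), all higher. The transporter BAT5 was the 1 gene called at both extremes (0.67, SE 0.07). With the block 5 were higher at both extremes, and BAT5 kept its call only without wild type replicate 2, or replicate 2 or 3 of LSD1-GFP. Further genes called higher at both extremes were the proline synthesis enzyme P5CS1 (1.16, SE 0.15; lost without wild type replicate 1 or 3), the abscisic acid phosphatase HAI1 (1.35, SE 0.17), the ethylene receptor ETR2 (0.44, SE 0.10; kept only without LSD1-GFP replicate 1 or 3) and the pyrophosphatase AT1G73010 (1.60, SE 0.23).

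**Figure D4:**
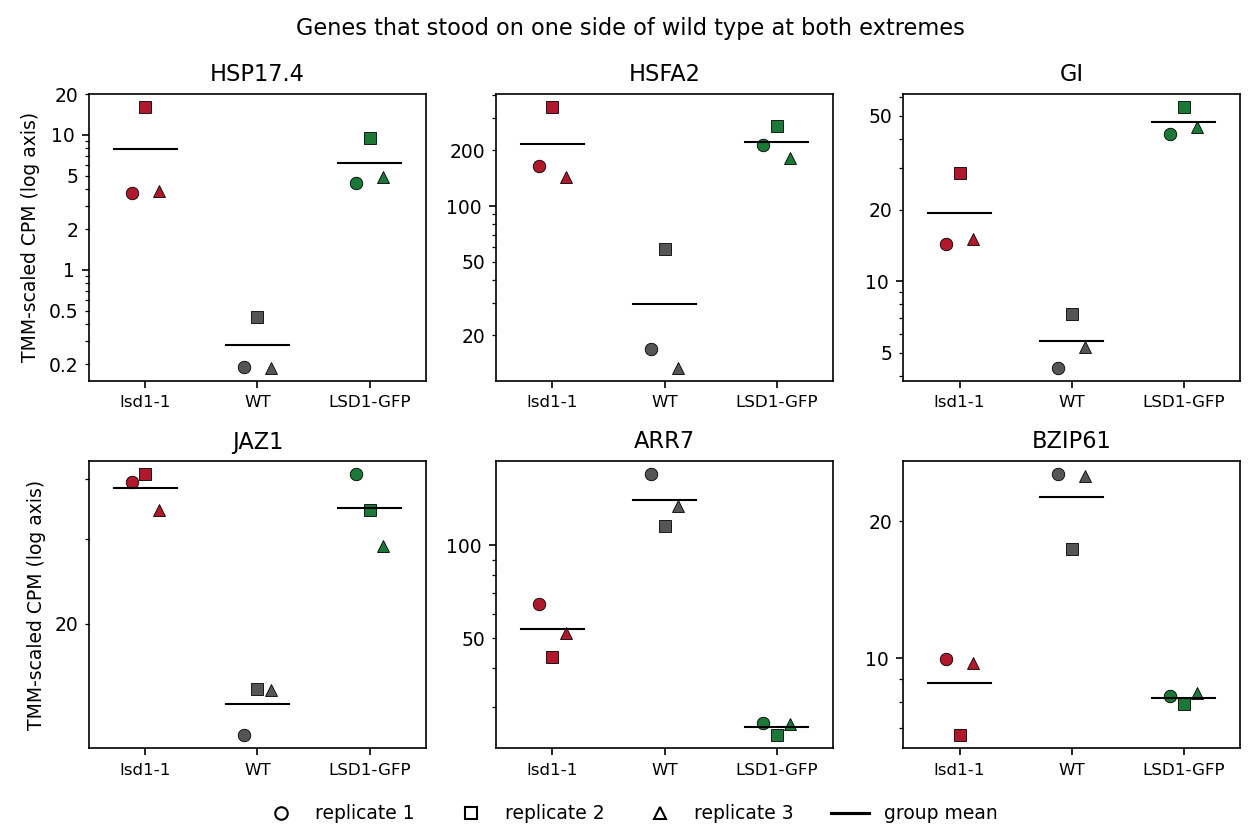
TMM-scaled CPM on a log axis for 4 genes higher and 2 lower at both extremes than in wild type; symbols are replicates and bars group means. The wild-type libraries lie below (HSP17.4, HSFA2, GI, JAZ1) or above (ARR7, BZIP61) all others, and replicate 2 (squares) is the highest of its group for HSP17.4, HSFA2 and GI.

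The gene list with the most members lower at both extremes was that of the type-A response regulators. These are switched on by cytokinin within minutes and feed back to damp its signal. Of 9 tested, 7 were lower at both extremes (1.82% of all genes tested) and all 7 had a quadratic term called below 0 (8.82% of all genes tested), with a list median of -1.08. ARR7 had 64.8, 43.7 and 52.2 CPM in lsd1-1, 170, 116 and 134 in wild type and between 24.3 and 26.6 in LSD1-GFP. LSD1-GFP lay lowest, and no groups overlapped. Its quadratic term was -1.91 (SE 0.13, adjusted p = 1.29e-05), from differences of -1.39 (SE 0.15) and -2.44 (SE 0.16). ARR6 had 33.4, 24.8 and 28.8, then 81.8, 60.0 and 76.9, then 18.3, 18.9 and 17.7 CPM (-1.66, SE 0.11, adjusted p = 6.01e-06). ARR8 had 92.6, 70.7 and 83.8, then 173, 137 and 150, then 69.6, 62.5 and 70.8 CPM (-1.04, SE 0.09). ARR4, ARR5, ARR9 and ARR15 made up the 7, with quadratic terms from -0.95 to -1.84. ARR16 was called in LSD1-GFP alone (log2 -1.41, SE 0.36, adjusted p = 0.0125) and ARR3, below 2 CPM in every library, in neither. The fall was steeper on the LSD1-GFP side: the linear term was called below 0 for 7 of the 9 (14.0% of all genes tested). Without lsd1-1 replicate 1 or LSD1-GFP replicate 3 it was called for 3. It was called for 4 without lsd1-1 replicate 3 or LSD1-GFP replicate 1 or 2. Replicate 2 was the lowest library of every group for 4 of the 9 (44.4%, against 5.70% of all genes tested). With replicates 1 and 3 alone, 7 of 9 were again lower at both extremes.

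IPS1 and AT4, noncoding RNAs that phosphate starvation switches on, were both lower at the extremes. IPS1 had 3.21, 3.34 and 2.69, then 7.87, 11.9 and 5.30, then 2.68, 2.24 and 1.41 CPM (-1.71, SE 0.25, adjusted p = 0.000735). AT4 had means of 29.8, 48.7 and 17.5 CPM (-1.09, SE 0.12). Among phosphate starvation genes, of 15 tested, these 2 were lower (1.82% of all genes tested) and the phosphatase AT1G73010 was higher (2.60%). Another 3 were called in LSD1-GFP alone, all higher (24.4% of all genes tested were called there alone). With the block SRG3 was also higher at both extremes. BZIP61, a leucine zipper factor, had means of 8.82, 22.7 and 8.18 CPM (-1.41, SE 0.14, adjusted p = 9.51e-05). The RING protein AT1G49200 had means of 13.1, 33.8 and 7.19 CPM (-1.80, SE 0.12), and AT3G26240, a C1 domain protein, 4.50, 11.5 and 3.71 CPM (-1.48, SE 0.16). AT1G27990, an uncharacterized protein, had 0, 0.927 and 0, then 8.54, 3.94 and 5.58 CPM, and at most 0.993 CPM in LSD1-GFP, so its fitted term of -4.00 rests on few counts; it was -6.39 without lsd1-1 replicate 2 and -4.74 on leaving out LSD1-GFP replicate 1. SAG21, a small stress protein of mitochondria, had 967, 809 and 855, then 1802, 1438 and 1466, then 746, 918 and 588 CPM (-0.95, SE 0.13). SPL3, which promotes flowering, had means of 26.3, 42.3 and 25.8 CPM (-0.70, SE 0.13), and lost its call without lsd1-1 replicate 3 or wild type replicate 1.

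Most genes of salicylic acid immunity moved at the low end alone. Of 33 tested, 26 had a linear term called below 0 (14.0% of all genes tested). A quadratic term was called above 0 for 20 (10.9%) and below 0 for 2 (8.82%), with a list median of 0.53. But 21 were called in lsd1-1 alone (4.31% of all genes tested), all 21 higher, and 4 in LSD1-GFP alone (24.4%). Another 2, WRKY53 and DMR6, fell steadily (0.312%), and 2 were higher at both extremes (2.60%). In 12 of the 33 genes replicate 2 was the lowest library of every group (36.4%, against 5.70% of all genes tested). With the block 4 fell steadily and 6 were higher at both extremes. WRKY53 and DMR6 both left their class when wild type replicate 1 or either of replicates 2 and 3 of LSD1-GFP was left out. Over the leave-outs 1 to 4 genes of the list were higher at both extremes, the 4 without replicate 3 of LSD1-GFP and 1 in 6 of the others. FMO1, a monooxygenase of systemic resistance, had 36.5, 18.6 and 39.2 CPM in lsd1-1, 0.384, 0.179 and 0.189 in wild type, then 1.19, 0.373 and 1.41 in LSD1-GFP (LSD1-GFP against wild type 1.93, SE 0.86, adjusted p = 0.118). WRKY18, a transcription factor of the same response, broke the pattern with 22.0, 26.3 and 22.7, then 9.98, 12.9 and 7.75, then 32.7, 23.0 and 22.1 CPM (quadratic term 1.27, SE 0.17, adjusted p = 0.000503). ADR1-L1, a helper immune receptor, was the other gene higher at both extremes, kept only without wild type replicate 1, or replicate 3 of LSD1-GFP; WRKY18 kept its call in all 9 leave-outs. PR1, the classic marker, had 495, 354 and 360, then 303, 112 and 178, then 30.6, 11.9 and 21.7 CPM. Its libraries were ordered without overlap along the scale, but the lower step was not called (1.03, SE 0.40, adjusted p = 0.192) while the upper one was (-3.21, SE 0.46, adjusted p = 0.00164). The defensin PDF1.2 was likewise called in the upper step alone (-2.03, SE 0.57, adjusted p = 0.0332), and its lsd1-1 and wild-type libraries overlapped.

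Most nuclear photosynthesis genes were called at the high end alone. Of 44 nuclear photosynthesis genes, 35 were called in LSD1-GFP alone, all higher, and 9 in neither step (24.4% of all genes tested were called in LSD1-GFP alone). With the block 3 of them were higher at both extremes and 2 rose steadily. RBCS1A, a Rubisco small subunit, had 13750, 13825 and 15699 CPM in lsd1-1, 14499, 14057 and 18171 in wild type, then 19748, 20920 and 23717 in LSD1-GFP. The first 2 groups overlapped and LSD1-GFP cleared both (upper step 0.46, SE 0.13, adjusted p = 0.0153). A linear term was called for 35 of these 44 genes (26.4% of all genes tested). A quadratic one above 0 was called for 18 (10.9%), or 31 with the block, 7 without wild type replicate 1 and 10 without replicate 2. Both counts show how a change in a single step enters both terms. Of 28 antioxidant enzymes 16 were called in LSD1-GFP alone (24.4% of all genes tested), 14 higher and 2 lower, and 11 in neither step (66.4%). The copper/zinc superoxide dismutases CSD1 and CSD2 had means of 31.9, 29.2 and 56.1 and of 34.2, 37.3 and 72.2 CPM, with upper steps of 0.94 (SE 0.19, adjusted p = 0.00332) and 0.95 (SE 0.20, adjusted p = 0.00587). Catalase 2 (AT4G35090), which binds LSD1, was called in neither step, with means of 3842, 3913 and 3975 CPM and an upper step of 0.02 (SE 0.11).

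**Figure D5:**
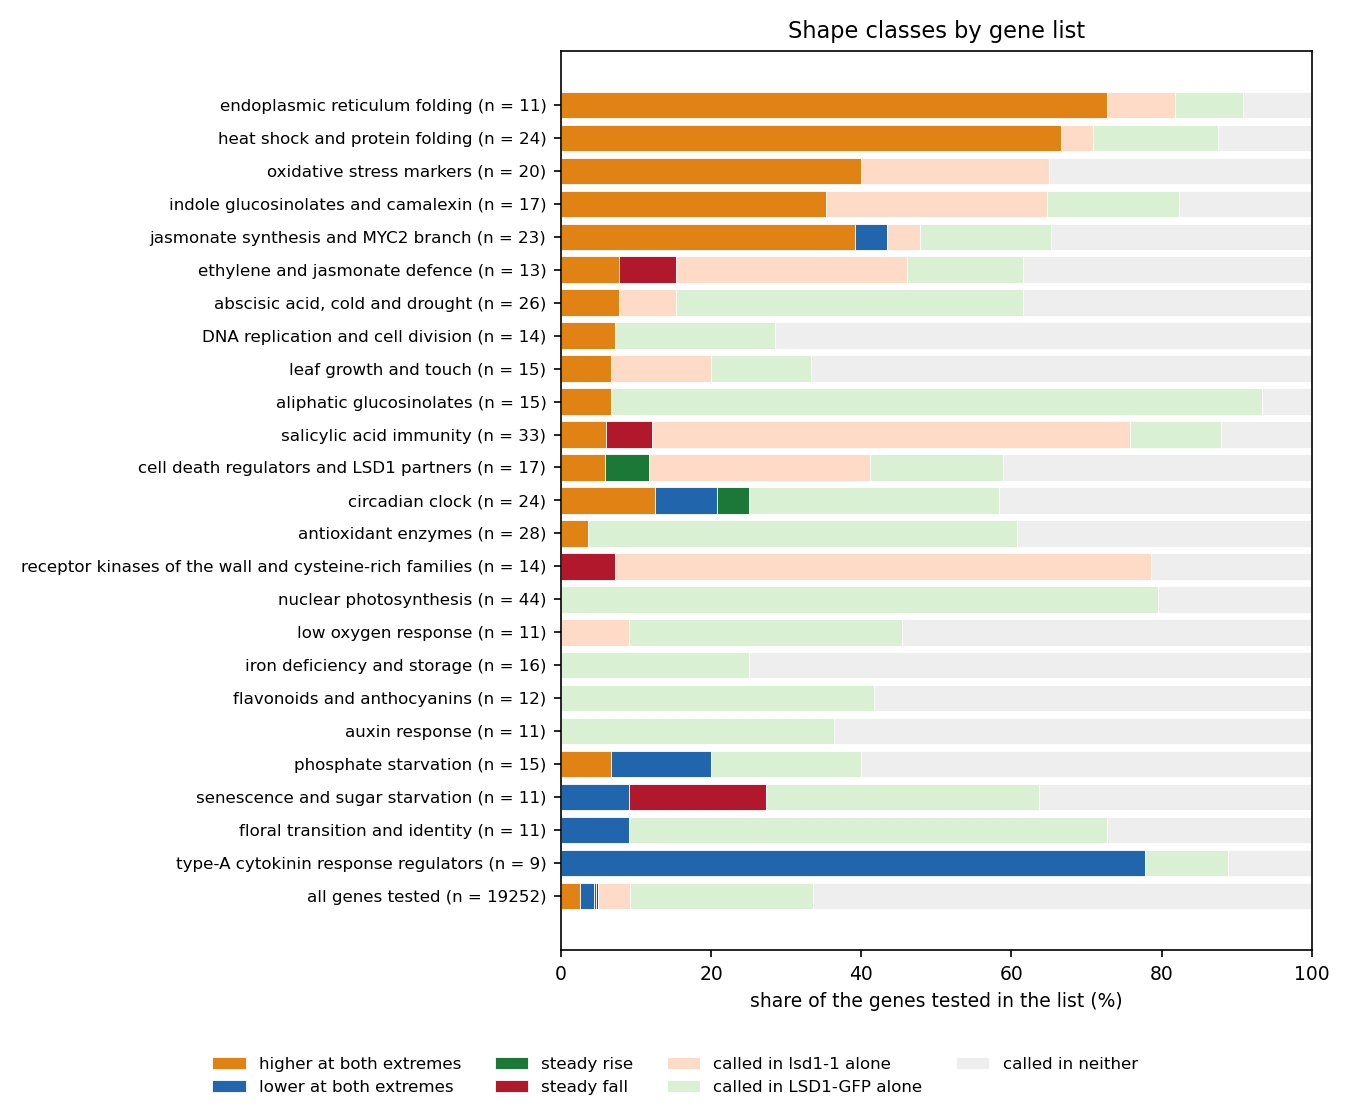
Share of the tested genes in each gene list (n in brackets, lists of at least 9) that fell into each shape class, with all genes tested at the bottom. Heat shock (16 of 24) and endoplasmic reticulum folding (8 of 11) are mostly higher at both extremes, type-A response regulators (7 of 9) lower, salicylic acid immunity is mostly called in lsd1-1 alone and nuclear photosynthesis in LSD1-GFP alone. Shares are from the fit without the block.

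Promoters of the classes differed in the letters searched for, counted from 250 bases before to 50 after the annotated start on both strands. The W-box, TTGACC or TTGACT, was in 32 of 60 promoters of steadily falling genes (53.3%), in 40.7% of those higher at both extremes and in 32.7% of all 19190 promoters read. In the salicylic acid immunity list the W-box was in 8 of 33 promoters (24.2%), a smaller share than over all. The heat shock element GAANNTTC was in 102 of 501 promoters of genes higher at both extremes (20.4%), in 11 of 24 of the heat shock list (45.8%), in 8 of 35 of steadily rising genes (22.9%), 0 of which are annotated as heat shock proteins, and in 11.5% of all. Of those higher at both extremes, 19.6% held the G-box CACGTG and 46.1% the core ACGTG that it contains, against 8.82% and 27.9% of all. The evening element AAAATATCT was in 5.59% of them, in 2.92% of all and in 0 of the 95 steady genes. For genes lower at both extremes the shares were 30.5% for the W-box, 10.3% for the heat shock element and 6.84% for the G-box. These shares describe the letters searched for, not other forms of the elements and not bound sites.

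The classes also differed in level. Genes lower at both extremes had a median of 49.3 CPM in wild type, those higher 25.5, steadily rising genes 44.6 and steadily falling ones 13.9, against 18.1 over all genes tested. The lower class sat farther from wild type in LSD1-GFP than in lsd1-1 in 239 of 351 genes, and the higher class in 270 of 501. Replicate 2 was the lowest library of every group for 60 of the 351 (17.1%, against 5.70% of all genes tested). Small heat shock genes, BIP1 with BIP2, GSTF2 with GSTF3, and the response regulators have close copies, and how the authors counted reads that match several copies is not given in the sources used here, so the split between copies is uncertain. The replicates are labelled as biological repeats and nothing more is said of their source, so p-values measure the spread between these samples.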

How the data were processed

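Messenger RNA was sequenced from Arabidopsis rosettes with a stranded kit, per the labels' protocols. Per the submitters' processing notes the tools were Trimmomatic 0.30, GSNAP 2013-02-05 and HTSeq 0.6.1 with the TAIR10 genome; the sources used here do not give the settings. The authors deposited raw counts for 27416 gene models, with no normalization, and 26719 of the loci were found in RefSeq's TAIR10.1 annotation, which gave names and promoters.

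From these counts the 9 libraries of lsd1-1, wild type and LSD1-GFP were fitted together in R 4.3.3 with edgeR 4.0.16 (filterByExpr, TMM, robust quasi-likelihood fit, 1 mean per group; biological coefficient of variation 10.5%). Linear and quadratic contrasts at scores -1, 0 and 1, and both steps, were tested two-sided with Benjamini-Hochberg adjustment over 19252 genes. SE is the log2 value divided by the square root of F; depth per library was 9781360 to 11503432 counts. The fit was tested on simulated data.

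Same-numbered libraries deviated together: all 9 pairs across groups correlated at 0.148 to 0.480, against -0.303 to 0.102 for the 18 differently numbered pairs. Replicate numbers, shared by the groups in the labels, were therefore also fitted as a block. Slopes, SEs, adjusted p-values and classes are from the fit without the block, which ignores this pairing, unless the block is named. The fit with the block is given where it changes a printed list or class count by over 1.5 times or the class of a gene described.

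The members and the 30 gene lists (491 loci; 16 more were dropped because symbol and locus did not match) were chosen with earlier results of these data known. Genes were named by a rule: LSD1, the 6 genes per class with the largest smaller step among those reaching 5 CPM without overlap from wild type, up to 3 members per list with the lowest p, and 10 fixed genes (PR1, PDF1.2, CSD1, CSD2, RBCS1A, CAT2, GI, HSP70, FMO1 and AOX1D). Other genes were named after their values were seen. Alternatives were RLE scaling, the DESeq2 1.42.0 Wald test, limma 3.58.1 voom, 2 other filters, all 12 libraries, measured LSD1 scores, the larger step p-value, each library left out and, chosen after seeing the data, replicates 1 and 3 alone.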

Additional observations from a re-analysis of the deposited data

How the results depend on the processing

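The numbers of genes in the classes depended on the libraries and on the block more than on the tool. Under RLE scaling, DESeq2, limma voom, both other filters, all 12 libraries and scores from measured LSD1 levels, all 8 counts stayed within 1.5 times of those reported. With the replicate block the quadratic term was called above 0 in 3252 genes and below 0 in 2734; 120 genes rose and 176 fell steadily, and 1075 were higher and 809 lower at both extremes. Of the genes reported, 34 of 35, 59 of 60, 497 of 501 and 350 of 351 were in the same class with the block. When 1 p-value per gene, the larger of both steps, was adjusted, 5, 14, 215 and 165 genes were left in these classes. Replicates 1 and 3 alone gave 1509 higher and 1657 lower for the linear term, 1200 above and 702 below for the quadratic, and 17 rising, 329 higher and 170 lower genes. With each library left out, linear calls ranged from 1647 to 2783 and from 1941 to 2719, quadratic calls from 1103 to 2074 and from 824 to 1604, steady rise from 9 to 38, steady fall from 21 to 55, higher at both extremes from 223 to 488 and lower from 149 to 336. The lowest values came without wild type replicate 1, except for the linear term (lsd1-1 replicate 1). For the 74 genes the naming rule took, the defining term kept its sign and side of the threshold in 1300 of 1325 refits and lost its call in 25, none reversing, though the class, which needs both steps, was lost more often; besides the heat shock genes, ZAT10, XTH23, MCM2, ETR2 and RBCS1A lost a call. The cause was not tested. Changes in genes with few counts, such as ARR3 and HSP22.0, were not detectable at this depth.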

Other observations

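Over the whole table, 4 genes had 0 counts in every library of at least 1 genotype and at least 1 CPM in every library of the others. AT5G20430 had 303, 479 and 307 counts and AT5G20440 had 72, 113 and 72 counts in LSD1-GFP, and both had 0 in the 6 other untreated libraries. They lie near each other on chromosome 5, at starts 6904672 and 6908606 in TAIR10.1. AT5G46960 had 95, 23 and 81 counts in lsd1-1 and 0 in wild type and LSD1-GFP. AT1G53540, a small HSP20-like chaperone, had 25, 75 and 22 counts in lsd1-1, 0 in wild type, and 22, 68 and 15 in LSD1-GFP.

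Other lists took shapes not described above. Cysteine-rich and wall-associated receptor kinases were called in lsd1-1 alone in 10 of 14 genes (4.31% of all genes tested), all higher, and CRK5 fell steadily. With the block 2 fell steadily and 3 were higher at both extremes. Of 11 floral transition genes tested, 5 were called lower and 2 higher in LSD1-GFP alone (24.4% of all genes tested), among them SEP3 and FUL, with SVP higher. Flower marker sums moved with them (2.42 to 2.98 CPM in LSD1-GFP against 4.92 to 7.70 in wild type). Summed guard cell markers (90.5 to 105, 94.6 to 124 and 93.3 to 118 CPM) and vascular markers (113 to 156, 103 to 192 and 119 to 179 CPM) overlapped between the 3 genotypes. SCR, listed as a root marker, was higher at both extremes (quadratic term 0.41, SE 0.08, adjusted p = 0.00342), with means of 80.0, 62.8 and 87.4 CPM, and lost this call without lsd1-1 replicate 2 or 3 or wild type replicate 1 or 2. No other of the 7 root markers tested was in the 4 classes, and their median quadratic term was -0.002.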
